A study of Mus musculus with 6 samples.

Results

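The 10 genes described here encode ligands of the TGF beta subgroup (Tgfb1, Tgfb2, Tgfb3), their receptors (Tgfbr1, Tgfbr2, Tgfbr3), latent TGF beta binding proteins (Ltbp1, Ltbp2, Ltbp4) and the matrix protein Tgfbi, which is named for its induction by TGF beta. They were chosen by symbol among probe sets that list 1 gene, and all 10 were measured, out of 22180 genes in all. Each had 1 such probe set. The study hybridised RNA of freshly sorted 129SV embryonic fibroblasts, taken at E14.5 from the back of the body wall, to 6 Affymetrix arrays. All embryos carried 1 Ebf2(GFP) allele beside a normal one, so both groups share the reporter genotype, and both were sorted for the receptor PDGFRα. The GFP-positive group (n = 3 arrays) holds Ebf2(GFP)+:Pdgfra+ cells and the GFP-negative group (n = 3 arrays) Ebf2(GFP)-:Pdgfra+ cells. The series presents Ebf2 as a marker of cells that give rise to brown and beige fat, and the comparison asks how cells with and without the reporter differ. The sort reads GFP from a knock-in reporter at the time of dissociation, and the labels do not say whether embryos were pooled or whether each replicate is a litter of its own. The p-values therefore reflect the scatter of these arrays, part or all of which may be technical.

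TGF beta ligands are made as precursors whose cleaved propeptide stays wrapped around the ligand and keeps it latent. LTBPs bind this complex and anchor it in the matrix, where integrins, proteases and other proteins release the ligand. The free ligand binds the type II receptor Tgfbr2, often presented by the coreceptor Tgfbr3 (betaglycan), which then recruits and activates the type I receptor Tgfbr1 to phosphorylate Smad2 and Smad3. In embryonic mesenchyme the pathway is known for its part in matrix production and in cartilage, tendon and smooth muscle differentiation, and as an inhibitor of fat cell differentiation.

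The upstream sequences of Tgfb1 and Tgfb2 are shown because these ligand genes had the lowest and the highest log2 change of the 10 genes. They are the 250 bases before the annotated start, from RefSeq (GRCm38.p6), on the plus strand at chr7:25686752-25687001 for Tgfb1 and on the minus strand at chr1:186705990-186706239 for Tgfb2. Capitals mark matches on either strand to the GC box GGGCGG and to the TATA box TATAAA.
Tgfb1: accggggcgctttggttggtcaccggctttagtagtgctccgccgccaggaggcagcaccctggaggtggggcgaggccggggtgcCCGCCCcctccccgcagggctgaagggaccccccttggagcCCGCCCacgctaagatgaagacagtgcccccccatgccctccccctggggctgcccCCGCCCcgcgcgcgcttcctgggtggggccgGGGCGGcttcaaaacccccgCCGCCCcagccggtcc
Tgfb2: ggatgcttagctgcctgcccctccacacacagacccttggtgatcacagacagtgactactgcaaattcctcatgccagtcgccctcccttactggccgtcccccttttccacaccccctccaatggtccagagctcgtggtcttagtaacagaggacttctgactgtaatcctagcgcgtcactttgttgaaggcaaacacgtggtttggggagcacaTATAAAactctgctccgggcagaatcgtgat
The Tgfb1 window was 75.2% G or C, with 5 GC boxes and no TATAAA. The Tgfb2 window was 53.6% G or C, with no GC box and 1 TATAAA whose first base lies 31 bases before the start. Among the 32851 windows of the same length for all genes, 32.7% held GGGCGG and 12.4% held TATAAA. The table of windows matched 8 of the 10 genes, with 12 windows. Of these, 7 held GGGCGG and 1 held TATAAA. These counts are of windows and not of separate genes. The Ltbp4 windows at chr7:27333649-27333898 and chr7:27333664-27333913 share most of their bases, and both held GGGCGG. A match is a run of letters, not a shown binding site, and the absence of one speaks only of these windows. Tgfb3 and Tgfbr3 were not matched.

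Tgfb1 was the only one of the 10 genes that passed limma's test, and it was lower in GFP-positive cells. Of all 22180 genes, 6.49% passed (adjusted p under 0.05), 2.65% higher and 3.84% lower, against 0 of 10 higher and 1 of 10 lower here. The median log2 change of the 10 genes was 0.058, beside 0.016 for all genes, and 6 of 10 changes were above 0. At an unadjusted limma p under 0.05 there were 4 of 10 or 40% (Tgfb1, Tgfb2, Tgfb3 and Tgfbr3), beside 17.7% of all genes. The arrays of the groups did not overlap for 3 of the 10 genes (Tgfb1, Tgfb3 and Tgfbr3), beside 22.0% of all genes. With the replicate number as a block in the fit, 4.55% of all genes were higher and 5.49% lower, against 0 and 1 of the 10. None of the 10 genes had a group mean below the 40th percentile of gene means (log2 6.78), the mark used here for dim genes since the files carry no detection calls.

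**Figure D1:**
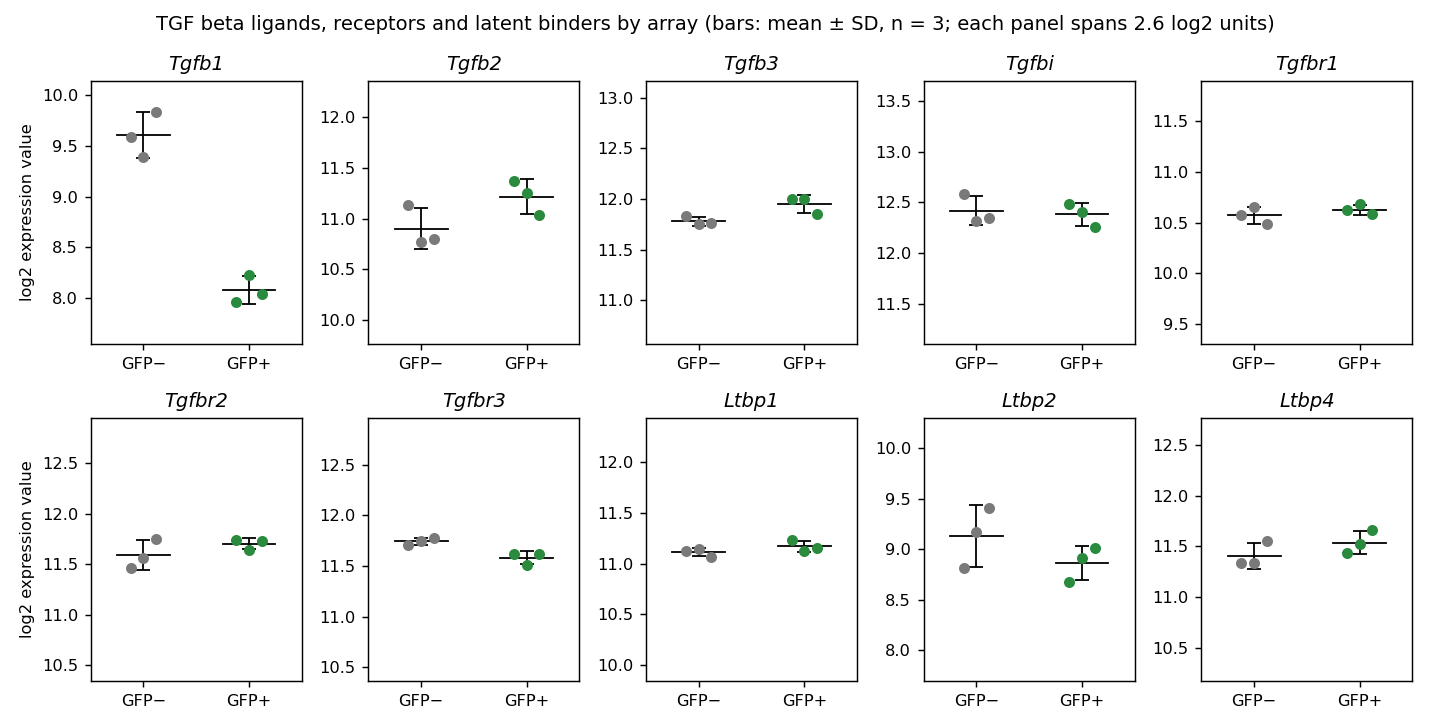
Log2 expression value (y axis) of the 10 genes in 3 GFP-negative arrays (grey) and 3 GFP-positive arrays (green), with mean and SD (n = 3), in panels that all span the same range of log2 units. Tgfb1 lies between 9.39 and 9.84 in GFP-negative arrays and between 7.96 and 8.23 in GFP-positive arrays, while the other genes shift by at most 0.32.

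Among the ligands, Tgfb1, the form best known from immune cells and wound repair, had log2 values of 9.59, 9.39 and 9.84 in GFP-negative replicates 1, 2 and 3 and of 7.96, 8.23 and 8.04 in GFP-positive replicates 1, 2 and 3. Every GFP-positive array was below every GFP-negative array. The means were 9.61 ± 0.229 (SD, n = 3) and 8.08 ± 0.141 (SD, n = 3), so that Tgfb1 fell 2.89-fold (log2 change −1.53 ± 0.13 SE, adjusted p = 0.0015). Between arrays of the same replicate number the differences were −1.64, −1.16 and −1.80.

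Tgfb2, a ligand of heart, skeletal and craniofacial development, had log2 values of 11.13, 10.77 and 10.80 in GFP-negative arrays and 11.37, 11.25 and 11.03 in GFP-positive arrays. The groups overlapped, since GFP-negative replicate 1 lay above GFP-positive replicate 3. Its log2 change of 0.32 ± 0.13 SE had a 95% interval of 0.02 to 0.62 and did not pass (adjusted p = 0.252). In each replicate pair the GFP-positive array was higher, by 0.25, 0.48 and 0.23.

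Tgfb3, a ligand known from palate and lung development, had values of 11.83, 11.75 and 11.76 in GFP-negative arrays and 12.00, 12.00 and 11.85 in GFP-positive arrays. The groups did not overlap, but the gap between GFP-negative replicate 1 and GFP-positive replicate 3 was narrow. The log2 change of 0.17 ± 0.06 SE (95% interval 0.02 to 0.32) did not pass (adjusted p = 0.232).

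The ligands were also compared within each array, a comparison chosen after their values were seen. Such a difference between probe sets has no meaning as a level, and only its shift between groups is read. Tgfb1 minus Tgfb2 was −1.54, −1.38 and −0.95 in GFP-negative arrays and −3.42, −3.02 and −2.99 in GFP-positive arrays, a shift of −1.85. Tgfb1 minus Tgfb3 shifted by −1.70. In both cases the groups did not overlap, and the exact two-sided permutation test over arrays gave p = 0.1, the smallest this design allows (0.15 adjusted over 3 pairs). Tgfb1 alone already separated the groups, by more than Tgfb2 or Tgfb3 changed. The outcome for these pairs was thus set by the fall of Tgfb1 and is no separate evidence. Tgfb2 minus Tgfb3 shifted by 0.15 (exact p = 0.3, adjusted p = 0.3).

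Tgfbr2, the type II receptor that binds the ligand first, had values of 11.46, 11.56 and 11.75 in GFP-negative arrays and 11.74, 11.64 and 11.73 in GFP-positive arrays. The groups overlapped, and the log2 change was 0.11 ± 0.08 SE (adjusted p = 0.567, 95% interval −0.08 to 0.31).

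Tgfbr1, the type I receptor kinase, had values of 10.57, 10.65 and 10.49 in GFP-negative arrays and 10.62, 10.68 and 10.58 in GFP-positive arrays. These groups also overlapped, with a log2 change of 0.06 ± 0.06 SE (adjusted p = 0.728, 95% interval −0.09 to 0.21).

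Tgfbr3, the coreceptor betaglycan, which presents ligand and is needed most for Tgfb2, had values of 11.71, 11.75 and 11.78 in GFP-negative arrays and 11.62, 11.51 and 11.62 in GFP-positive arrays. All 3 GFP-positive arrays were below the GFP-negative ones, by a small margin. The log2 change was −0.16 ± 0.06 SE (95% interval −0.30 to −0.03) and did not pass (adjusted p = 0.177).

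Of the latent binders, Ltbp1, which couples covalently to the latent complex, had values of 11.13, 11.14 and 11.07 in GFP-negative arrays and 11.23, 11.13 and 11.15 in GFP-positive arrays. The groups overlapped, and the log2 change of 0.06 ± 0.05 SE did not pass (adjusted p = 0.653, 95% interval −0.07 to 0.19).

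Ltbp4, which is known from elastic fibre assembly, had values of 11.33, 11.33 and 11.55 in GFP-negative arrays and 11.43, 11.52 and 11.66 in GFP-positive arrays. Replicate 3 was the highest in both groups, and the groups overlapped. The log2 change was 0.14 ± 0.09 SE (adjusted p = 0.525, 95% interval −0.08 to 0.35).

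Ltbp2, an LTBP of microfibrils that does not bind latent TGF beta, had values of 8.81, 9.17 and 9.41 in GFP-negative arrays and 8.68, 8.91 and 9.01 in GFP-positive arrays. The groups overlapped, with a log2 change of −0.26 ± 0.16 SE (adjusted p = 0.49, 95% interval −0.65 to 0.12). The GFP-positive array was lower in each replicate pair (differences of −0.13, −0.26 and −0.40), and with the replicate number as a block the SE was 0.07 (adjusted p = 0.0838). The log2 change was −0.43 without GFP-negative replicate 1, −0.12 without GFP-negative replicate 3 and −0.17 without GFP-positive replicate 1. A further probe set, which lists Ltbp2 together with D030025P21Rik, had a mean of 6.35, below the mark for dim genes. It differed by −0.17 ± 0.16 SE (adjusted p = 0.778 in a fit over every probe set).

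Tgfbi, a secreted matrix protein that binds integrins and collagens, had values of 12.58, 12.32 and 12.35 in GFP-negative arrays and 12.48, 12.40 and 12.26 in GFP-positive arrays. The groups overlapped throughout, with a log2 change of −0.04 ± 0.09 SE (adjusted p = 0.88, 95% interval −0.26 to 0.18).

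**Figure D2:**
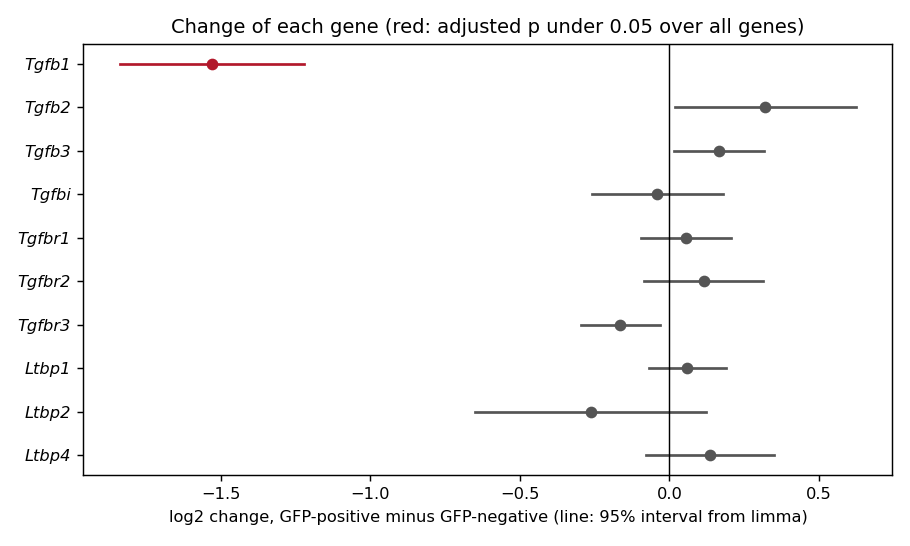
Log2 change, GFP-positive minus GFP-negative (x axis), of each of the 10 genes, with limma's 95% interval as a line and red for an adjusted p under 0.05 over all genes. The interval of Tgfb1 runs from −1.84 to −1.22, and those of the other genes lie between −0.65 and 0.62.

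The sort and the labelled cell type were checked on the same arrays. Ebf2 was at 8.16, 8.60 and 9.21 in GFP-negative arrays and at 12.04, 12.04 and 11.93 in GFP-positive arrays. All 10 fibroblast markers, Pdgfra and the collagens Col1a1, Col1a2 and Col3a1 among them, were measured, and their mean log2 level ran from 12.98 to 13.00 in GFP-negative arrays and from 12.66 to 12.81 in GFP-positive arrays. Of these markers 0 rose and 2 fell, namely Twist2, a transcription factor gene of dermal mesenchyme (log2 change −1.67 ± 0.16 SE, adjusted p = 0.0024), and the proteoglycan gene Lum (−0.34 ± 0.07 SE, adjusted p = 0.0295). Of the other marker lists, those of macrophages and cartilage moved with the groups in full, with 16 of 16 and 14 of 14 measured genes lower in GFP-positive cells. In the remaining lists 1 of 12 endothelial genes was higher and 1 lower, and 1 of 11 mural genes was higher and 4 were lower. Lower were also 2 of 5 Schwann cell genes and 1 of 5 epithelial genes. For skeletal muscle 0 of 8 genes passed limma's test (2 at an unadjusted p under 0.05, as were 17.7% of all genes, and 1 with the replicate block). Beside all these counts, those of the fibroblast markers included, stand 2.65% of all genes higher and 3.84% lower. Of the 5 Schwann cell genes 0 had a log2 change above 0, with a median of −0.589. Their mean log2 level ran from 8.65 to 8.99 in GFP-negative arrays and from 7.98 to 8.24 in GFP-positive arrays.

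Macrophages are a known source of Tgfb1, and the macrophage markers fell in the same arrays as Tgfb1. Both groups had been sorted for PDGFRα, a gate meant for mesenchymal cells and not for macrophages. Macrophage markers were still measured in both groups, and how many macrophages passed the gate is not known. The mean log2 level of the 16 markers was 9.81, 9.26 and 10.15 in GFP-negative replicates 1, 2 and 3 and 7.07, 7.77 and 8.04 in GFP-positive replicates 1, 2 and 3. Replicates 3, 1 and 2 stood in this order from high to low for both Tgfb1 and the macrophage markers in GFP-negative cells, whereas in GFP-positive cells the highest array was replicate 2 for Tgfb1 and replicate 3 for the markers. The summed linear level of the markers was 15320 to 29110 in GFP-negative arrays and 2734 to 5697 in GFP-positive arrays. In GFP-positive cells Ptprc, Cd14, Aif1 and Laptm5 had means below the mark for dim genes, and the defining markers Adgre1 and Csf1r had means of 6.92 and 8.30. Cd68, Fcer1g and C1qb were brighter there, with means of 9.93, 9.03 and 8.80. The summed level of the 14 cartilage markers, also lower beside Tgfb1, was 28360 to 33700 in GFP-negative arrays and 10190 to 11890 in GFP-positive arrays. Their mean log2 level was 10.72, 10.59 and 10.55 in GFP-negative replicates 1, 2 and 3 and 9.02, 9.32 and 9.20 in GFP-positive ones. Their order over replicates was that of Tgfb1 in GFP-positive cells but not in GFP-negative cells. An order of 3 arrays cannot decide between the cell types. The part of either cell type in the fall of Tgfb1 was not tested. In bulk samples, fewer cells of a type and less RNA per cell cannot be told apart.

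**Figure D3:**
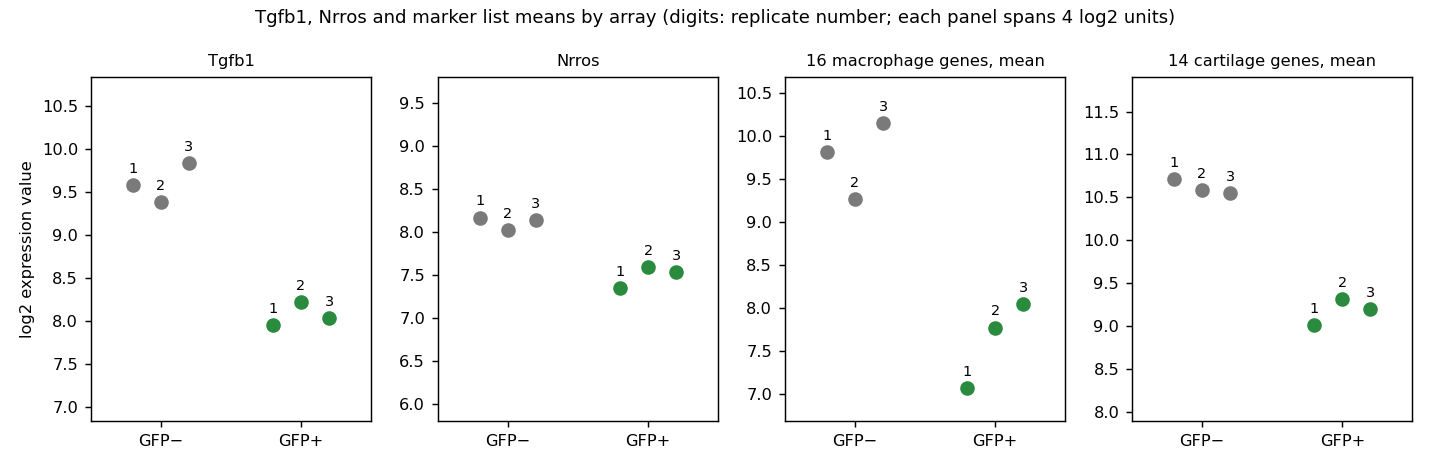
Log2 expression value (y axis) of Tgfb1, Nrros and the mean of 16 macrophage and 14 cartilage genes in each GFP-negative (grey) and GFP-positive (green) array, numbered by replicate. All 4 measures are lower in each GFP-positive array than in each GFP-negative array.

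Other genes that keep TGF beta latent, store it or release it were measured as a list of 17 genes (of 18 entries, of which Fbn1 was not analysed here). Among them 0 rose and 2 fell, beside 2.65% and 3.84% of all genes, with a median log2 change of −0.028. At an unadjusted p under 0.05 there were 6 or 35.3%, beside 17.7% of all genes. Nrros, which anchors latent Tgfb1 on macrophages and microglia, had values of 8.17, 8.03 and 8.14 in GFP-negative arrays and 7.35, 7.59 and 7.54 in GFP-positive arrays. It fell 1.54-fold (log2 change −0.62 ± 0.08 SE, adjusted p = 0.00692), beside the lower macrophage markers, whose part was not tested. Fmod, fibromodulin, a collagen-binding proteoglycan of tendon and cartilage that also binds TGF beta, fell 1.69-fold (−0.76 ± 0.12 SE, adjusted p = 0.0166), beside the lower cartilage markers, whose part was not tested either. The call of Fmod ended without GFP-negative replicate 1 or 3 or GFP-positive replicate 1 (adjusted p up to 0.0802).

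Members of this list that did not pass are given by value. Lrrc32 (GARP), the relative of Nrros on platelets and regulatory T cells, had a log2 change of −0.42 (adjusted p = 0.158, or 0.0491 without GFP-negative replicate 3). Itgb8, the integrin subunit that with Itgav activates latent TGF beta, had a log2 change of 0.38 (adjusted p = 0.124). It passed with the replicate number as a block (adjusted p = 0.029) and without GFP-negative replicate 1 (0.046). Tgm2, a transglutaminase that crosslinks LTBPs to the matrix, had a log2 change of −0.30 (adjusted p = 0.0546, or 0.039 with the block). With the block the list thus had 1 higher and 3 lower genes. Ltbp3 had a log2 change of 0.12 (adjusted p = 0.335), and Thbs1, the thrombospondin that activates latent ligand, one of −0.10 (adjusted p = 0.701).

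Of 12 measured genes of other receptors, coreceptors and receptor-binding proteins, 0 rose and 2 fell, again beside 2.65% and 3.84% of all genes, with a median log2 change of −0.062. At an unadjusted p under 0.05 there were 4 or 33.3%, beside 17.7% of all genes. Cd109, a membrane-anchored coreceptor that dampens TGF beta signalling, had values of 9.56, 9.92 and 9.88 in GFP-negative arrays and 8.70, 9.03 and 8.57 in GFP-positive arrays. It fell 2.03-fold (log2 change −1.02 ± 0.14 SE, adjusted p = 0.00981, or 0.0545 without GFP-positive replicate 1). Dab2, an adaptor of endocytosis that binds receptors and Smads, fell 1.37-fold (−0.45 ± 0.08 SE, adjusted p = 0.0217), and its call ended without any 1 array other than GFP-negative replicate 2 (adjusted p up to 0.0963). Without GFP-positive replicate 1, 0 genes of this list passed. Dab2 is also expressed by macrophages, whose markers were lower in the same arrays. Their part in its fall was not tested.

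None of 15 measured SMADs and SMAD regulators passed limma's test (0 higher and 0 lower, 4 or 26.7% at an unadjusted p under 0.05, beside 17.7% of all genes), with a median log2 change of 0.051. Those 4 were Smad6, which was lower, and Smurf1, Smurf2 and Ski, which were higher. Smurf1, Smurf2 and Ski had log2 changes of 0.20, 0.13 and 0.19 (adjusted p = 0.0942, 0.28 and 0.108). The receptor-regulated Smad2 and Smad3 had log2 changes of 0.07 and 0.18, the common mediator Smad4 one of −0.04, and the inhibitory Smad7 one of −0.14 (adjusted p = 0.599, 0.421, 0.824 and 0.545). Smad6, an inhibitor chiefly of BMP signals, had a log2 change of −0.40 (adjusted p = 0.0602) and passed without GFP-negative replicate 3 (0.0348), after quantile normalization (0.0458) and without dim genes (0.0428). Skil (SnoN), a SMAD corepressor that TGF beta induces, had values of 8.93, 9.08 and 8.30 in GFP-negative arrays and 9.30, 9.37 and 8.91 in GFP-positive arrays. Replicate 3 was the lowest in both groups, and the log2 change of 0.42 passed only with the block (adjusted p = 0.0324, against 0.404 without it).

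Of 32 measured genes known to respond to TGF beta in fibroblasts, 1 rose and 8 fell, beside the same shares of all genes (2.65% and 3.84%), with a median log2 change of −0.085. At an unadjusted p under 0.05 there were 15 or 46.9%, beside 17.7% of all genes. The smallest p-value was that of Cnn1, a calponin of smooth muscle, with 8.27, 8.48 and 8.46 in GFP-negative arrays and 7.49, 7.49 and 7.51 in GFP-positive arrays. It fell 1.88-fold (log2 change −0.91 ± 0.07 SE, adjusted p = 0.00106). Acta2, smooth muscle actin, fell 1.54-fold (adjusted p = 0.0045). Angptl4, a secreted inhibitor of lipoprotein lipase, fell 1.64-fold (adjusted p = 0.00395), and Timp1, an inhibitor of matrix proteases, fell 1.28-fold (adjusted p = 0.0135, or up to 0.0594 without GFP-positive replicate 1 or 2). The other 4 that fell were Lrrc15, Snai1, Tagln and Ccn2, with adjusted p-values of 0.0205 to 0.0499. Leaving out 1 array ended the call of Lrrc15 (any array but GFP-negative replicate 1, adjusted p up to 0.094), Snai1 (any array, up to 0.103), Tagln (any but GFP-negative replicate 1, up to 0.154) and Ccn2 (any but GFP-negative replicate 2, up to 0.183). Tagln also lost its call after quantile normalization (adjusted p = 0.0519) and Ccn2 with robust eBayes (0.0518), and the log2 change of Ccn2 was −0.53 in place of −0.91 with means over its probe sets.

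Timp3, a matrix-bound relative of Timp1, went the other way, with values of 11.21, 11.22 and 11.17 in GFP-negative arrays and 11.76, 11.73 and 11.50 in GFP-positive arrays. It rose 1.38-fold (log2 change 0.46 ± 0.08 SE, adjusted p = 0.0187), and the call ended without any 1 array other than GFP-positive replicate 3 (adjusted p up to 0.0835). The main collagen genes of the list were nearly level, with log2 changes of −0.08 for Col1a1, −0.07 for Col1a2 and 0.03 for Col3a1 (adjusted p = 0.49, 0.568 and 0.845). Cdkn1a, a cell cycle inhibitor, had a log2 change of −1.03 (adjusted p = 0.0506, or 0.00473 with the block and 0.0319 after median centring). Postn came as near to passing in the other direction, with a log2 change of 0.22 (adjusted p = 0.0505). It passed without dim genes (0.0359) and with the eBayes trend (0.00653), but not with the block (0.0631). With the block 2 genes were higher and 10 lower, with Nox4 added to the former, Cdkn1a, Tgm2 and Lox to the latter, and Tagln lost (adjusted p = 0.0524). The count of lower genes was 5 without GFP-negative replicate 2, 4 without GFP-negative replicate 3, 3 without GFP-positive replicate 1 or 2 and 4 without GFP-positive replicate 3. Acta2, Cnn1 and Tagln are also mural cell markers. Of the other 8 mural markers, Rgs5 fell (log2 change −0.65, adjusted p = 0.00449) and Notch3 rose (0.50, adjusted p = 0.0293). The summed level of these 8 was 7715, 8378 and 8954 in GFP-negative arrays and 8509, 8695 and 9152 in GFP-positive arrays, which overlapped. Such a sum of unlogged values is weighted to the brighter genes. The part of mural cells in the fall of Acta2, Cnn1 and Tagln was not tested.

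**Figure D4:**
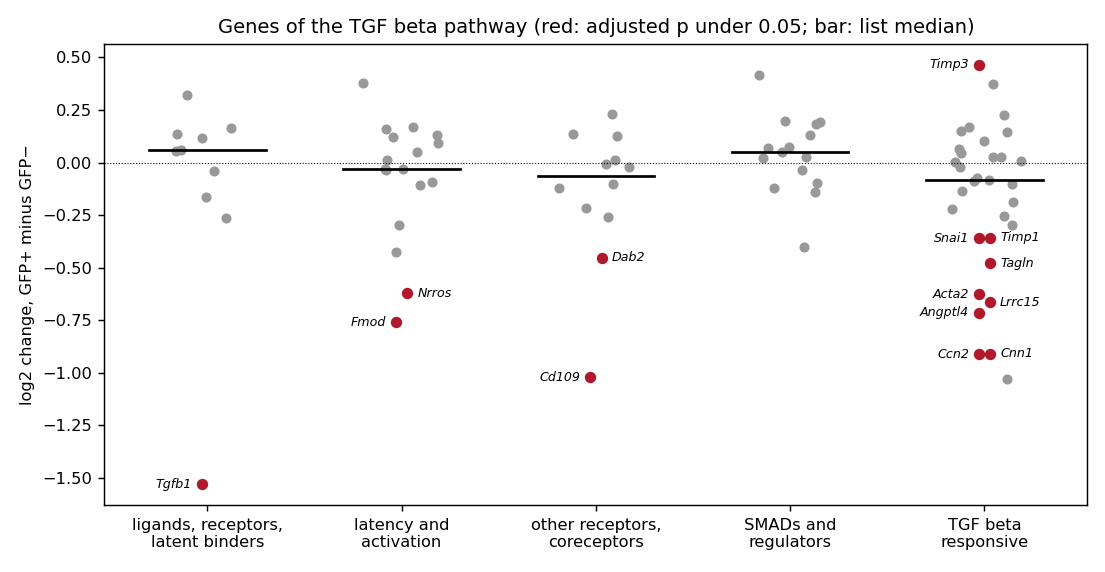
Log2 change, GFP-positive minus GFP-negative (y axis), of the genes of 5 TGF beta pathway lists, with red named points for an adjusted p under 0.05 and bars for list medians. Tgfb1 has the lowest value of all genes plotted, and the medians lie between −0.085 and 0.058.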

How the data were processed

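The labels' processing notes name RMA and limma, without versions or filters, and the deposited table gives log2 expression per probe set. Because RMA equalises the arrays' distributions, a change common to most genes is not visible. Array medians ran from 6.657 to 6.712, and 3 arrays a group limit the precision. Of 41345 probe sets, 23521 list 1 gene, 1814 several and 16010, controls included, none. Symbols were updated by gene identifier through RefSeq (GRCm38.p6). Where a gene had several (1082 genes), that of highest 6-array mean was used, with no filter, which left 22180 genes.

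The groups were compared by limma 3.58.1 (lmFit, eBayes, R 4.3.3) with Benjamini-Hochberg adjustment over all genes, after a check on simulated data. Errors of means are SD and those of changes moderated SE, and 95% intervals are not adjusted for the number of genes. Summed levels add the unlogged values. The members and lists were chosen with earlier results of these data known. Named genes are the 10 members, up to 4 passing genes with the smallest p per pathway list and those against a list's direction. Others were chosen after their values were seen.

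Same-numbered arrays deviated together from their group means (r = 0.314 to 0.519, against −0.384 to −0.024 for other numbers), so the numbers were taken to pair the arrays, from the data alone. Such deviations sum to 0 within a group, so the correlations are not independent. Tried besides were the fit with this block, quantile or median scaling, no dim genes, means over probe sets, every probe set, eBayes with trend or robust, a threshold of 0.01 and leaving out each array.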

Additional observations from a re-analysis of the deposited data

How the results depend on the processing

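Tgfb1 passed under 14 of 14 alternatives, with log2 changes of −1.64 to −1.41 and adjusted p-values of 0.000455 to 0.0126, and none of the other 9 genes passed under any of them. These are not 14 separate checks. With 1 probe set per gene used here, means over probe sets and the fit of every probe set reuse the same values. The block, the eBayes options and leaving out dim genes also could not move the log2 change, only its SE or adjusted p. Tgfb2 came nearest, with an adjusted p of 0.0531 with the replicate block. Tgfbi changed sign without GFP-negative replicate 1 (0.04) and without GFP-positive replicate 3 (0.02), and ran from −0.088 to 0.04 with 1 array left out. The replicate block changed no call of the 10 genes. With the block, 1010 genes were higher in all. It gave 1 higher gene of latency and activation, 1 higher SMAD gene, 2 higher responsive genes, 2 lower endothelial genes and 2 higher mural genes, and 1 higher gene each for skeletal muscle and epithelium. At an adjusted p under 0.01, 208 genes were higher and 331 lower in all, with 1 lower gene of latency and activation, 1 lower receptor gene, and 0 higher and 3 lower responsive genes. A count of 1 lower SMAD gene was found after quantile normalization and without dim genes, and 2 responsive genes were higher without dim genes, with means over probe sets and with the eBayes trend. With 1 array left out, counts ran from 241 to 441 higher and 388 to 656 lower genes in all, 0 to 1 higher and 1 to 2 lower genes of latency and activation, 0 to 2 lower receptor genes, 0 to 1 lower SMAD genes, and 0 to 1 higher and 3 to 6 lower responsive genes. Beyond fewer genes tested, fewer arrays and the stricter threshold, the cause was not tested. Over the 14 alternatives the changes that did not pass ran from 0.015 to 0.096 for Tgfbr1, 0.049 to 0.19 for Tgfbr2, 0.030 to 0.082 for Ltbp1, 0.075 to 0.21 for Ltbp4 and −0.43 to −0.12 for Ltbp2. The 95% intervals are those of the fit without the block.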
